A study of Mus musculus with 146 samples.

Results

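Cxcl13, Tnfsf13b, Cxcl16 and Ccl24 encode secreted or shed proteins that draw in lymphocytes and eosinophils or keep B cells alive. They were chosen by name, and all 4 are among the 716 genes of the table of disease stages. The table describes brains of Cx3cr1-CreER:RPL22-HA mice, F1 of C57BL/6 * SJL, in which tamoxifen-activated Cre puts an HA tag on a ribosomal protein. Every mouse, controls included, carried these alleles and received 5 mg of tamoxifen by gavage on 4 occasions, on alternate days, at 4 to 6 weeks of age. Disease was relapsing-remitting EAE (experimental autoimmune encephalomyelitis), in which immunized mice develop inflammation of the central nervous system resembling multiple sclerosis. Each stage was represented by an equal number of anti-HA, isotype control (IgG1) and input libraries: 6 from non-immunized mice, 4 from initiation, 6 from max, 8 from remission, 5 from cure and 4 from relapse. Anti-HA libraries hold mRNA on tagged ribosomes, IgG libraries the background of the precipitation, and inputs the RNA of the whole homogenate. The stage was taken from the titles, since the treatment label names EAE for the non-immunized libraries as well. The Cx3cr1 promoter is active in microglia, in macrophages at the borders of the brain and in blood monocytes, so the tag is not limited to microglia.

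CXCL13 attracts B cells and follicular helper T cells through CXCR5 and organises lymphoid follicles. TNFSF13B, better known as BAFF, sustains B cells through the receptors encoded by Tnfrsf13b, Tnfrsf13c and Tnfrsf17. CXCL16 is made as a membrane protein, can be shed by ADAM10, and attracts T cells that carry CXCR6. CCL24, or eotaxin-2, attracts eosinophils through CCR3 and is made by some tissue macrophages.

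On GRCm38, the build also called mm10, Cxcl13 (ENSMUSG00000023078.6) lies on chromosome 5 at 95956951 to 95961068 on the plus strand, with 4 exons. Tnfsf13b (ENSMUSG00000031497.9) lies on chromosome 8 at 10006467 to 10039072 on the plus strand, with 7 exons. Cxcl16 (ENSMUSG00000018920.11) lies on chromosome 11 at 70453983 to 70459984 on the minus strand, with 5 exons, and Ccl24 (ENSMUSG00000004814.10) on chromosome 5 at 135569937 to 135573049 on the minus strand, with 4 exons. The authors placed Cxcl13 and Tnfsf13b in the same cluster of 23 genes, which is numbered 4 in the authors' deposited table. The RefSeq table of promoters for GRCm38.p6 (250 bases before and 50 after a start) holds 1 window for Cxcl13 and 2 for Tnfsf13b. The Cxcl13 window, chr5:95956689-95956988 on the plus strand, and the Tnfsf13b window that holds a motif, chr8:10006383-10006682 on the plus strand, are shown because the authors' table puts both genes in that cluster; their courses differed in size, as given below. Capitals mark an interferon-response-like motif.
Cxcl13: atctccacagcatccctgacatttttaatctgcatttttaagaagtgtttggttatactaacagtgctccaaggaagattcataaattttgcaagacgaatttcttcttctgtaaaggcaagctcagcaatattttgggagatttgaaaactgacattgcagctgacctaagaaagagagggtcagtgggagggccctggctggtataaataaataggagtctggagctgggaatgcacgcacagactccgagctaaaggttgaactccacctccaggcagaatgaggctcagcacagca
Tnfsf13b: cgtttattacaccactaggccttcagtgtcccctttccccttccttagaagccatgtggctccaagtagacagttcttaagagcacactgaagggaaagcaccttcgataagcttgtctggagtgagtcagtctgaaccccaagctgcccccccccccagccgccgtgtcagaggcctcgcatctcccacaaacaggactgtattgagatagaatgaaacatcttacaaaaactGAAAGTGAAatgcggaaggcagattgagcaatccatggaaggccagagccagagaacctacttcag
Each window was searched on both strands for a GAS motif (TTCNNNGAA), an ISRE-like motif (GAAANNGAA), a kB-like motif (GGNNNTTCC) and a PU.1 core (GAGGAA). The capitals in Tnfsf13b were the only match in the 3 windows; they begin at base 235, which is position -16 from that start. Of 32851 promoters of equal length, 8.3% held the GAS motif, 8.56% the ISRE-like, 18.5% the kB-like and 28.3% the PU.1 motif. A match of letters is not evidence of a bound site.

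The deposited values, called normalized values here, are reads per gene after division by each library's size factor, and all of them were whole multiples of the value of 1 read. Over the 716 genes, anti-HA libraries held 152704 to 880410 reads, inputs 49902 to 159540 and IgG libraries 6775 to 162205. The authors chose the 716 genes on the anti-HA libraries themselves, since every gene is past both a 2-fold difference and an adjusted p of 0.05 in 1 or more of the authors' 15 anti-HA comparisons. Calls in those libraries are therefore not independent evidence that a gene changed. Nor is a lack of overlap between anti-HA groups such evidence. How many of the 716 genes had groups of libraries without overlap was not counted for any comparison, so statements on overlap below describe the 4 genes alone. Nothing in the labels ties a replicate to an animal of its own, so p-values measure only the spread between libraries, which may be technical. The third principal component of the inputs set all cure and relapse libraries and remission replicates 7 and 8 apart from the rest, so stage and this side can be told apart through remission alone. In the anti-HA and input groups of the 3 stages with 6 or more libraries, Cxcl16 was higher in libraries numbered 1 to 3 than in those numbered 4 and up. Of 10 microglial markers, 5 were in the table, with a summed normalized value between 11062 and 25665 in non-immunized anti-HA libraries and between 131 and 176 in their inputs; at disease stages the anti-HA sum lay between 4232 and 13099. All 5 were called lower than in non-immunized mice at initiation, max and remission, and 2 of 5 in cure and in relapse. Of all 716 genes, 16.2%, 17.2%, 15.4%, 17% and 14.9% were called lower at the stages from initiation to relapse. Markers of monocytes, neutrophils, B cells, T cells, neurons, astrocytes and oligodendrocytes were not among the 716 genes.

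The first question was how ribosome-bound mRNA of the 4 genes changed between non-immunized mice and each stage. Cxcl13, Tnfsf13b and Cxcl16 rose and Ccl24 fell at all 5 stages in limma's test on log2(value + 1), with p adjusted over 716 genes and a call below 0.05. In the order initiation, max, remission, cure and relapse, the shares of all genes called higher were 74.4%, 71.5%, 62.2%, 24.4% and 30.7%. The shares called lower were 16.2%, 17.2%, 15.4%, 17% and 14.9%. The 5 comparisons share the same 6 non-immunized libraries. The median log2 fold change of all 716 genes was 1.24, 1.19, 0.80, 0.19 and 0.44 in the same order, and quantile normalization brought it to 0.11, 0.06, -0.00, -0.02 and -0.04. In these bulk libraries, fewer cells and less RNA per cell cannot be told apart.

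**Figure D1:**
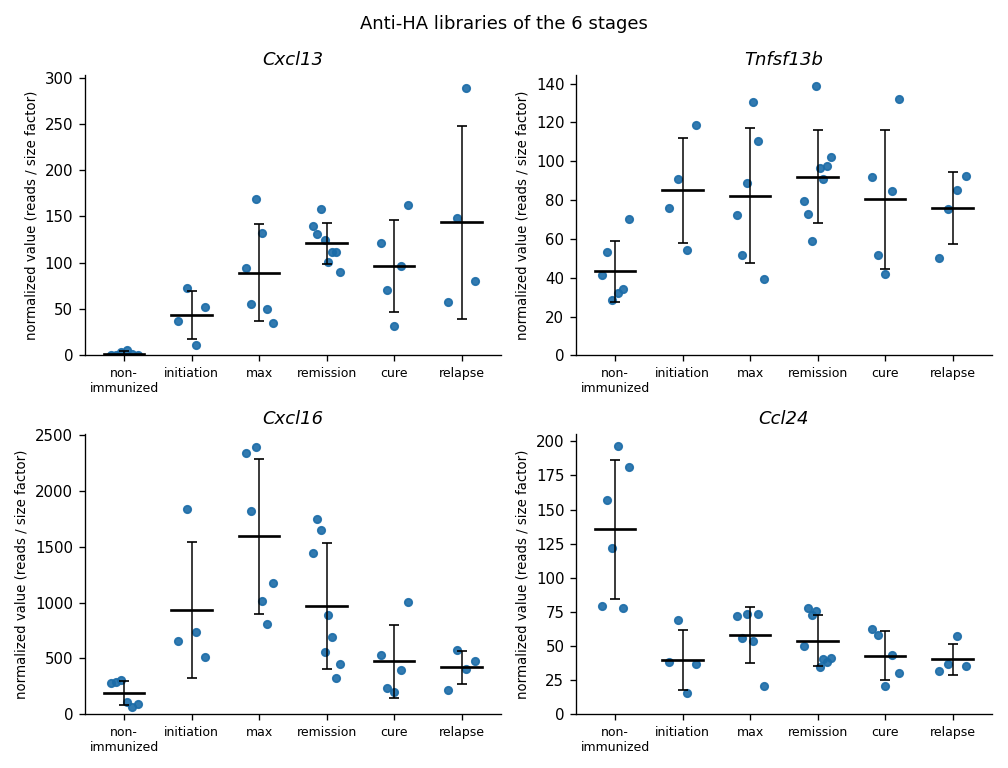
Normalized values (reads divided by the library's size factor, linear axes from 0) of the 4 genes in each of the 33 anti-HA libraries, by stage; bars are means and whiskers SD, cut at 0. Cxcl13 was between 0 and 5.87 in non-immunized libraries and between 11.3 and 289 at the disease stages, while Ccl24 had its highest mean, 136, in non-immunized libraries.

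Cxcl13, the B cell attractant, went from near absence to a clear signal. In the 6 non-immunized anti-HA libraries its normalized value was 0 in 3 libraries and 1.21, 3.73 and 5.87 in the others, 6 reads in all. At initiation the values were 37.0, 72.9, 11.3 and 51.8. Every initiation library was thus above every non-immunized one. At max they ran from 35.2 over a median of 75.3 to 169, and in remission from 89.6 over 118 to 158. Cure libraries held 121, 70.8, 31.5, 96.7 and 162, and relapse libraries 57.2, 148, 289 and 80.5. No disease library overlapped the non-immunized group. Against non-immunized mice, initiation had a log2 fold change of 4.17 ± 0.55 (SE; limma, adjusted p 1.71e-07), max 5.26 ± 0.49 (1.10e-10), remission 5.88 ± 0.46 (3.82e-12), cure 5.39 ± 0.52 (2.88e-09) and relapse 5.87 ± 0.55 (8.63e-10). Among the 716 log2 fold changes these ranked 33, 20, 2, 1 and 2 from the highest. With so few reads in non-immunized mice their size depends on the pseudocount: with 0.1 in place of 1 the relapse value was 7.73, and with 10 it was 3.49, and all 5 comparisons were called with either.

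The order of the stage means of Cxcl13 was non-immunized, initiation, max, cure, remission and relapse, with means of 1.80 ± 2.46 (SD, n = 6), 43.2 ± 25.9 (n = 4), 89.3 ± 52.4 (n = 6), 96.5 ± 49.6 (n = 5), 121 ± 22.1 (n = 8) and 144 ± 104 (n = 4). Among disease stages, remission was higher than initiation by 1.71 ± 0.52 on the log2 scale (limma, adjusted p 0.0157) and relapse higher than initiation by 1.70 ± 0.60 (adjusted p 0.0196). Of all genes, 6.28% and 3.63% were called higher in these comparisons, and 35.5% and 50.8% in either direction. Neither call held without initiation replicate 3, the lowest of its group at 11.3, which left a log2 difference of 1.18 in both comparisons (adjusted p 0.0921 and 0.108). The second was also lost without relapse replicate 3, the highest at 289, at 1.28, and a pseudocount of 0.1 ended both calls. With a term for the side set apart by the inputs, relapse against initiation was 2.04 and was not called (adjusted p 0.472). In the authors' deposited table neither difference passed the limit for a call. The log2 fold changes there were 1.57 (adjusted p 0.170) for remission against initiation and 2.12 (0.160) for relapse against initiation. Neighbours in this order above non-immunized were not called apart: max exceeded initiation by 1.09 (95% interval -0.04 to 2.21), and relapse and remission differed by -0.01 (-1.07 to 1.06). Remission had the least spread, with an SD of 18.3% of the mean, against 72.4% in relapse.

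Cxcl13 was also low outside the precipitate and rose there. The non-immunized inputs held 1 read in all. Inputs held 1.57, 5.85, 3.56 and 1.70 at initiation, 6.52 to 19.3 at max (median 14.7), 3.32 to 16.1 in remission (median 7.79), 5.71, 1.88, 4.90, 7.42 and 29.2 in cure. Relapse inputs held 3.24, 10.1, 7.48 and 4.16. Every disease input was above every non-immunized input. By pooled reads per size factor, the ratio to non-immunized inputs was 20.4 (95% counting interval 3.17 to 856) at initiation, 83.1 (14.6 to 3313) at max and 39.5 (6.74 to 1593) in relapse. These intervals cover counting error only, and the 5 input comparisons were called by limma (log2 fold changes 1.77 to 3.62). The initiation call was lost under a pseudocount of 10 (0.36) and under quantile normalization (0.50). Of all genes, 39.2%, 53.4%, 33.9%, 24.4% and 26.8% were called higher in inputs at the stages from initiation to relapse.

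Tnfsf13b, the B cell survival factor, rose by about the same amount at every stage in the main fit. Under quantile normalization and under edgeR with TMM factors it was not called at any stage. Its anti-HA values in non-immunized libraries ran from 28.6 over a median of 37.7 to 70.1. Initiation libraries held 76.0, 91.1, 54.1 and 119, and max libraries ran from 39.6 over 80.6 to 130.4. Remission ran from 59.0 over 93.8 to 139, cure libraries held 91.9, 51.7, 42.0, 84.9 and 132, and relapse libraries 50.3, 75.6, 84.99 and 92.6. The highest non-immunized library lay inside the range of every stage, so no group stood clear of the controls. Initiation exceeded non-immunized by 0.97 ± 0.33 on the log2 scale (limma, adjusted p 0.00730), max by 0.87 ± 0.29 (0.00733), remission by 1.10 ± 0.27 (0.000818), cure by 0.83 ± 0.31 (0.0289) and relapse by 0.83 ± 0.33 (0.0378). At initiation and max these lay below the median of the 716 genes, and scalings that centre the chosen genes turned the sign there, to -0.19 and -0.19 under quantile normalization and to -0.17 and -0.20 under edgeR with TMM factors. The remission call was lost under the same scalings, at 0.29 and 0.44. In cure and relapse the rise was not called with a term for the side, at 0.63 and 0.63 (adjusted p 0.295 and 0.300). Quantile normalization and TMM factors ended these calls as well. Leaving out single libraries also ended them, with 6 such libraries for cure and 7 for relapse. In the authors' deposited table, cure and relapse also missed 0.05, with log2 fold changes of 0.98 (adjusted p 0.274) and 0.90 (0.345).

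The stage means of Tnfsf13b were 43.3 ± 15.8 (SD, n = 6) in non-immunized mice, then 75.9 ± 18.4 (n = 4) in relapse, 80.5 ± 35.7 (n = 5) in cure, 82.2 ± 34.7 (n = 6) at max, 84.97 ± 27.2 (n = 4) at initiation and 92.2 ± 23.8 (n = 8) in remission. None of the 10 pairs of disease stages was called. Of all genes, 9.64% were called for max against initiation, 62.8% for cure against initiation and 20.9% for remission against max. The shares were 34.1% for cure against remission, 0.279% for relapse against remission and 0% for relapse against cure. Neighbours in the order among disease stages differed by less than the SD of either group. The widest pair by mean, relapse against remission, differed by -0.27 (95% interval -0.91 to 0.36). Inputs held few reads, 14 in all in non-immunized mice with values from 0.935 over 1.45 to 5.66. At max the inputs ran from 4.38 over 8.29 to 15.2 and in remission from 3.65 over 6.44 to 12.6. Those were the 2 stages at which the input was called higher, by 1.72 ± 0.36 (limma, adjusted p 0.000151) and 1.55 ± 0.34 (0.000448). Both calls were lost under quantile normalization, at 0.14 and 0.49. Of all genes, 53.4% and 33.9% were called higher in inputs at these 2 stages.

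Cxcl16, the ligand of CXCR6, had the largest normalized values of the 4 genes and its highest levels at max. Non-immunized anti-HA libraries ran from 66.7 over a median of 195 to 302. Initiation libraries held 655, 1841, 737 and 513, and max libraries ran from 806 over 1499 to 2398. All libraries of these stages were above all non-immunized ones. Remission ran from 325 over 789.7 to 1753, also clear of the controls. Cure libraries held 528, 235, 201, 399.7 and 1003, and relapse libraries 218, 575, 406 and 476. Cure and relapse overlapped the non-immunized group. Initiation had a log2 fold change of 2.35 ± 0.51 (limma, adjusted p 0.000154), max 3.18 ± 0.46 (3.33e-07), remission 2.35 ± 0.43 (2.52e-05), cure 1.30 ± 0.48 (0.0289) and relapse 1.29 ± 0.51 (0.0392). The rise in cure was not called without cure replicate 5, the library at 1003 (0.97, adjusted p 0.133), and either late rise was lost when any of the non-immunized replicates 4, 5 or 6 was left out. The relapse call was also lost with edgeR on the recovered reads (1.13).

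The order of Cxcl16 from the top was max (1593 ± 690.2, SD, n = 6), remission (969 ± 565, n = 8), initiation (936 ± 609.7, n = 4), cure (473 ± 324, n = 5), relapse (419 ± 150.3, n = 4) and non-immunized (189.9 ± 109, n = 6). Cure was below max by 1.88 ± 0.48 on the log2 scale (limma, adjusted p 0.00123), with overlapping libraries, and relapse was below max by 1.89 ± 0.51 (0.00368), without overlap. Of all genes, 63% and 49.2% were called lower in these comparisons, and 69% and 53.5% in either direction. Neighbours in the order among disease stages were not called apart: the interval of remission against max reached from -1.71 to 0.04, and that of relapse against cure from -1.10 to 1.07. Quantile normalization left -0.69 and -0.93 and ended both calls. With a term for the side, cure differed from max by -0.41 (adjusted p 0.777) and relapse by -0.42 (0.901), and cure and relapse exceeded non-immunized by 2.77 and 2.76. In the authors' deposited table the log2 fold changes of Cxcl16 in cure and relapse against non-immunized were 2.53 (adjusted p 0.00641) and 2.36 (0.0204), and cure and relapse against max were -0.53 (0.670) and -0.71 (0.669).

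Within stages, Cxcl16 split by library number. Non-immunized anti-HA libraries numbered 1 to 3 held 279, 284 and 302, and those numbered 4 to 6 held 112, 66.7 and 95.7. At max the first 3 held 2337, 1824 and 2398 and the others 1017, 806 and 1173, and in remission the first 3 held 1440.5, 1753 and 1648 and the other 5 ran from 325 to 888. In all 3 stages with 6 or more libraries the first 3 lay above the rest, in anti-HA and in inputs. The labels name no batch, and what the numbers stand for was not tested. Of the 716 genes, 17 (2.37%) showed this order in the anti-HA libraries of all 3 stages and 5 (0.698%) the opposite one; Cxcl16 was the only one of the 4 genes to do so. The rise was called in either set of numbers: max exceeded non-immunized by 2.91 in libraries numbered 1 to 3 and by 3.45 in the others, and remission exceeded it by 2.48 and 2.61, all called (this split was chosen after the values were seen). Of the 716 genes, 476 and 472 were called higher at max in these sets, and 470 and 298 in remission.

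**Figure D2:**
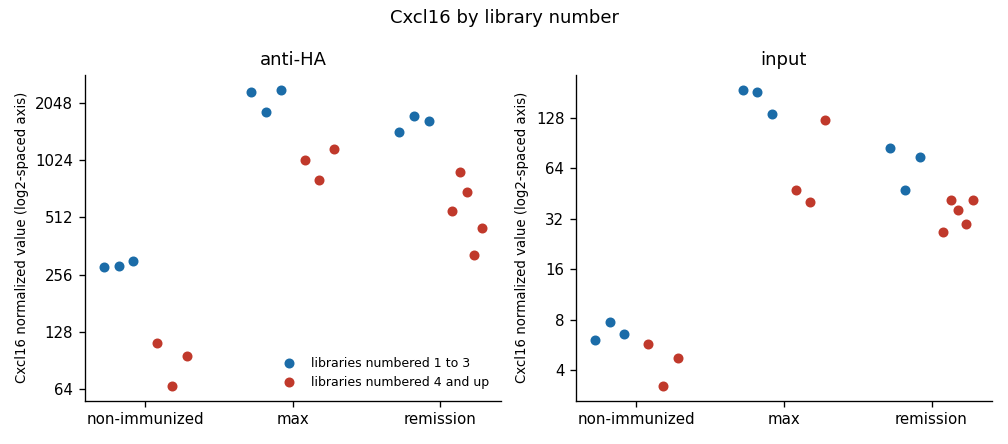
Cxcl16 normalized values (log2-spaced axes) in anti-HA and input libraries of the 3 stages with 6 or more libraries, coloured by library number. In each stage libraries numbered 1 to 3 lay above those numbered 4 and up, for example 279 to 302 against 66.7 to 112 in non-immunized anti-HA libraries.

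In the inputs Cxcl16 rose at all 5 stages. Non-immunized inputs ran from 3.23 over 5.88 to 7.76. Inputs held 33.8, 226, 32.0 and 33.1 at initiation, 40.5 to 189 at max (median 130.0), 26.8 to 84.7 in remission, 27.3, 18.1, 26.5, 11.9 and 80.8 in cure. Relapse inputs held 35.6, 80.0, 28.0 and 24.4. No disease input fell into the non-immunized range. The log2 fold changes were 3.07 ± 0.51, 3.99 ± 0.46, 2.81 ± 0.43, 2.08 ± 0.48 and 2.57 ± 0.51 in that order (limma, adjusted p 1.09e-05, 9.08e-09, 4.71e-06, 0.00177 and 0.000324). Of all genes, 39.2%, 53.4%, 33.9%, 24.4% and 26.8% were called higher in inputs at these stages. Initiation replicate 2 stood above its group in all 3 kinds of library, at 1841 against at most 737 in anti-HA, 226 against at most 33.8 in input and 115 against at most 28.1 in IgG. Without that library the anti-HA rise at initiation was 1.96 and remained called.

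Ccl24, the eosinophil attractant, moved the other way in the precipitate. Its non-immunized anti-HA values were 79.6, 157, 122, 197, 77.6 and 181. Initiation libraries held 38.0, 68.8, 15.8 and 36.8, and max libraries ran from 20.9 over 64.0 to 73.4. All of these lay below all non-immunized libraries. Remission ran from 34.3 over 45.6 to 77.6, where the highest library just reached the lowest control. Cure libraries held 62.5, 58.0, 21.0, 43.3 and 29.9, and relapse libraries 32.0, 36.8, 57.0 and 35.5, again below every control. Ccl24 fell by 1.82 ± 0.38 on the log2 scale at initiation (limma, adjusted p 9.17e-05) and by 1.22 ± 0.34 at max (0.00155). Remission was lower by 1.30 ± 0.32 (a log2 fold change of -1.30, 0.000712), and Ccl24 fell by 1.65 ± 0.36 in cure (0.000388) and by 1.67 ± 0.38 in relapse (0.000697). With a term for the side the cure and relapse differences were -1.16 and -1.18 and were not called (adjusted p 0.113 and 0.101). The authors' deposited table gives -1.18 (0.256) and -1.26 (0.203) for the same comparisons.

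Its stage means were 136 ± 50.9 (SD, n = 6) in non-immunized mice, 58.2 ± 20.3 (n = 6) at max, 53.8 ± 18.6 (n = 8) in remission, 42.9 ± 17.8 (n = 5) in cure, 40.3 ± 11.3 (n = 4) in relapse and 39.8 ± 21.9 (n = 4) at initiation. No pair of disease stages was called, and neighbours among them differed by less than the SD of either group. Max against initiation had the largest difference, 0.60 (95% interval -0.17 to 1.37). The inputs held 8 reads of Ccl24 over 6 non-immunized libraries and 14 to 21 reads at each disease stage. Non-immunized inputs ran from 0 over 1.29 to 1.89, and the stage with the highest mean, max, from 0 over 2.16 to 6.27. None of the 5 input comparisons was called, with log2 differences from -0.06 to 0.74, and at this depth a change of the size seen in the precipitate could not be read in single libraries. The change of the anti-HA to input difference was called at initiation, -2.56 ± 0.66 (limma, adjusted p 0.00151), max, -1.78 ± 0.59 (0.0106), cure, -1.82 ± 0.62 (0.0297), and relapse, -2.15 ± 0.66 (0.0153), but not in remission, -1.24 ± 0.55 (0.0700). A pseudocount of 0.1 ended these 4 calls, and quantile normalization ended those of max (-1.21), cure (-1.06) and relapse (-1.48). The cure call was lost under 4 of 7 alternatives, also edgeR with either scaling, and without any 1 of 6 libraries: anti-HA cure replicates 3 and 5, input cure replicates 2 and 3, anti-HA non-immunized replicate 4 and input non-immunized replicate 1 (-1.74 to -1.60, adjusted p up to 0.0854). Of all genes, 17.5%, 22.6%, 15.4%, 14.8% and 14.2% were called lower in this test in the order initiation, max, remission, cure and relapse, and 31.1%, 24.3%, 19.6%, 3.63% and 6.15% higher.

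Markers of border macrophages, which also carry active Cx3cr1, are in the table with all 7 members: Pf4, Cbr2, Mrc1, Lyve1, Cd163, F13a1 and Folr2. Their summed normalized value in anti-HA libraries had a median of 2306 (1055 to 3116) in non-immunized mice, 1497 (1233 to 2116) at initiation and 1334 (989 to 1878) at max. Remission had a median of 995 (735 to 1645), cure 828.6 (362 to 1073) and relapse 701 (687 to 1001). Among them 1 fell and 2 rose at initiation, 5 fell and 2 rose at max, and 4, 6 and 4 fell in remission, cure and relapse. Of all genes, 16.2%, 17.2%, 15.4%, 17% and 14.9% were called lower at these stages. At initiation and max, 74.4% and 71.5% of all genes were called higher. The median log2 fold change of the 7 was -0.40, -0.73, -1.17, -1.53 and -1.49, against the medians of all genes given above. Pf4, platelet factor 4, fell by 1.68 ± 0.35 at initiation and by 2.08 ± 0.35 in relapse (limma, adjusted p 9.17e-05 and 1.84e-05). Cd163, a haemoglobin scavenger receptor, rose by 0.77 ± 0.29 at initiation (adjusted p 0.0134), where Ccl24 fell by 1.82; this rise, and that of F13a1 (0.92 ± 0.34, 0.0122), was smaller than the median of all genes, 1.24, and other scalings were not computed for the markers. Of 6 dendritic cell markers only Cd209a was in the table, and it was called lower at all 5 stages, with log2 fold changes of -2.86 ± 0.53, -4.04 ± 0.47, -2.36 ± 0.44, -2.19 ± 0.50 and -2.69 ± 0.53 (limma, adjusted p 2.49e-05, 8.56e-09, 3.75e-05, 0.000673 and 0.000142). The microglial markers called lower are counted above. The part of any of these markers in the fall of Ccl24 was not tested. Of the eosinophil markers only Siglecf was in the table. In anti-HA libraries it was called higher by limma at initiation (1.07 ± 0.34, adjusted p 0.00524), max (1.80 ± 0.31, 4.90e-06) and remission (1.57 ± 0.29, 2.61e-05). The initiation value was below the median of all genes, 1.24. Siglecf was not called in cure (0.62) or relapse (0.47). Which cells held Siglecf was not tested.

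**Figure D3:**
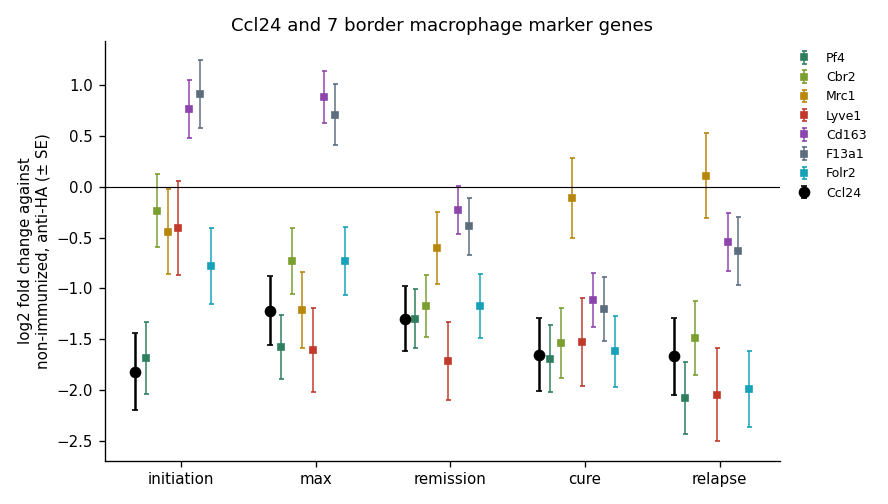
Log2 fold changes against non-immunized mice in anti-HA libraries (± SE, limma) of Ccl24 and the 7 border macrophage marker genes at the 5 stages. Ccl24 lay between -1.82 and -1.22 throughout, Pf4 was lower at each stage, and Cd163 and F13a1 were higher at initiation and max.

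The second question was whether the 4 transcripts came down with the tagged ribosomes. They were called higher at 46 of 48 comparisons with input or IgG. Under quantile normalization 42 of the 48 were called, and under edgeR with TMM factors 41. Tnfsf13b exceeded the input by 3.09 to 4.29 on the log2 scale, Cxcl16 by 3.36 to 4.64 and Ccl24 by 3.37 to 5.94, all called by limma at each of 6 stages, with no overlap of libraries. Of all genes, 82.1% were called higher than input in non-immunized mice, and 94.1%, 93.4%, 95.7%, 83.4% and 85.6% at the stages from initiation to relapse. The median log2 difference of all genes from input lay between 1.95 and 2.64 over the 6 stages. Under edgeR with TMM factors the initiation differences from input were 1.12 for Ccl24, 0.95 for Cxcl16 and 1.05 for Cxcl13, and that of Cxcl13 at max was 0.35, none of them called. The Ccl24 difference in non-immunized mice, 5.94 ± 0.42 (adjusted p 3.31e-23), rested on 570 reads in the precipitate and 8 in the input. By pooled reads per size factor this is a ratio of 102 (95% counting interval 51.3 to 237). Cxcl13 exceeded its input at the 5 disease stages by 2.50 to 4.15, again without overlap. In non-immunized mice, with 6 reads against 1, the difference was 0.86 ± 0.55 (adjusted p 0.139) against input and 0.86 ± 0.55 (adjusted p 0.138) against IgG, and neither was called.

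Against IgG, Cxcl13 exceeded the background by 3.34 to 5.86 at the disease stages, Tnfsf13b by 3.41 to 4.65, Cxcl16 by 4.61 to 5.49 and Ccl24 by 4.53 to 6.48 across the stages. Genes called higher against IgG made up 83%, 95.4%, 95.3%, 96.2%, 87.4% and 88.1% in the order of stages. The median log2 difference of all genes from IgG lay between 2.18 and 2.77. Besides non-immunized Cxcl13, which had libraries at 0 in both, only Cxcl13 at initiation had overlapping libraries, since IgG replicate 2 held 16.2 and the lowest anti-HA library 11.3. That comparison was not called under edgeR with TMM factors (0.36). IgG values of Cxcl16 lay between 2.79 and 9.48 in non-immunized mice and between 23.1 and 166 at max, without overlap; stages were not tested against each other in IgG. Neither Tnfsf13b nor Cxcl16 had a called change of the anti-HA to input difference at any stage.

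**Figure D4:**
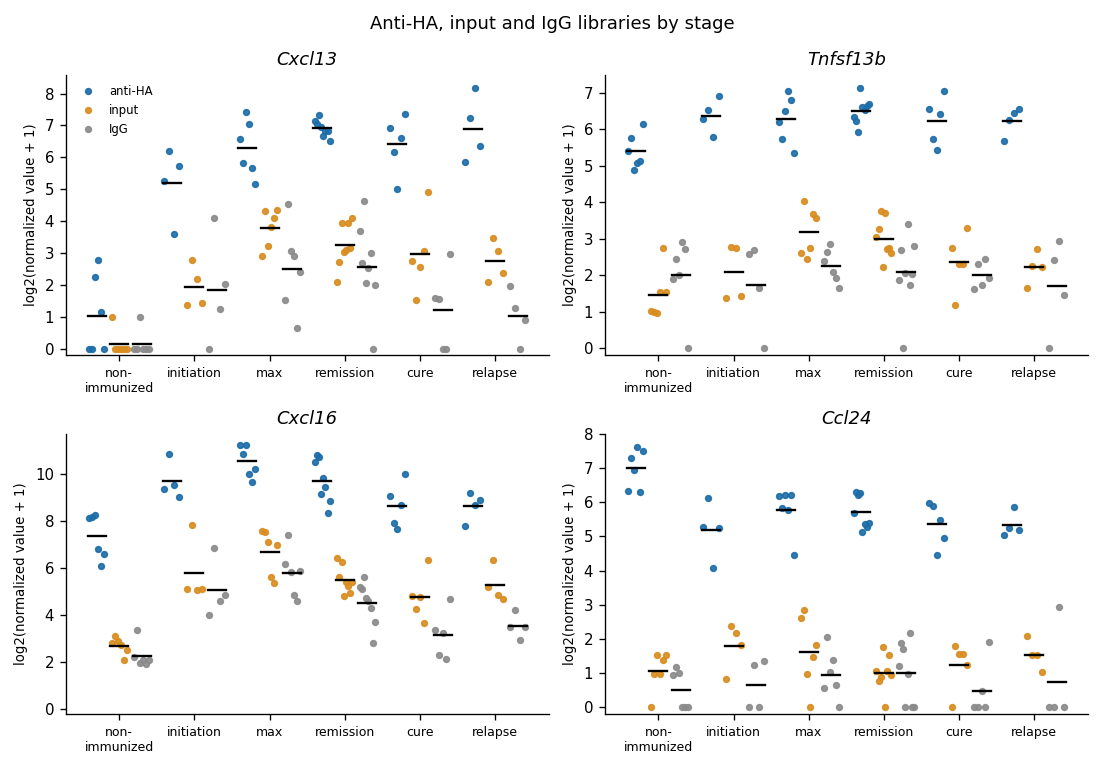
Log2(normalized value + 1) of the 4 genes in anti-HA, input and IgG libraries of each stage; points are libraries and bars are group means. Anti-HA points lay above the input and IgG points for Tnfsf13b, Cxcl16 and Ccl24 at each stage, and for Cxcl13 from max onwards.

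**Figure D5:**
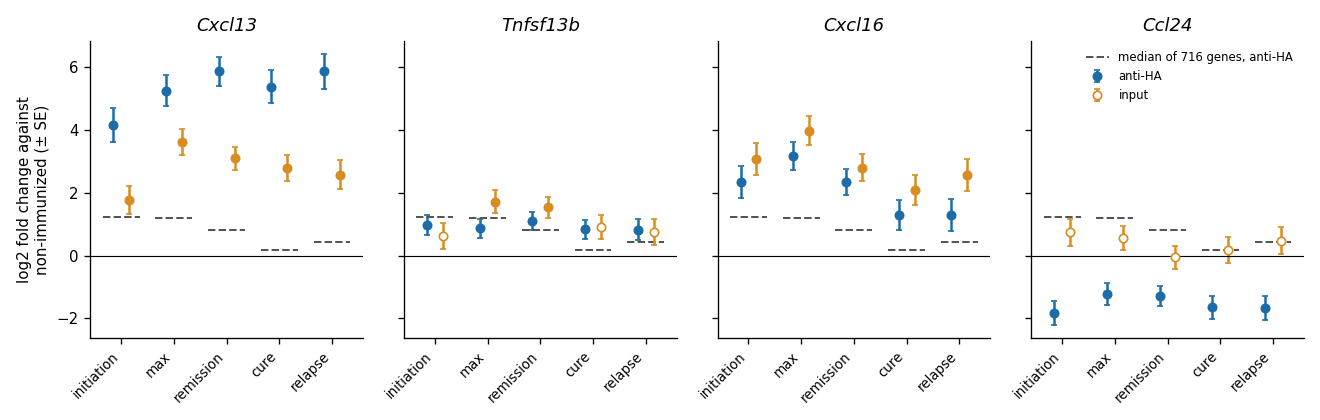
Log2 fold changes against non-immunized mice (± SE, limma) in anti-HA and input libraries at the 5 disease stages; filled points passed an adjusted p of 0.05, and dashed lines give the median of all 716 genes in anti-HA libraries. Cxcl13, Tnfsf13b and Cxcl16 were higher and Ccl24 lower in anti-HA libraries at each stage (the sign of Tnfsf13b turned at initiation and max under quantile normalization and TMM), while Ccl24 passed in no input comparison.

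Levels between genes were compared per kilobase of exon, using 1150 bases for Cxcl13, 4771 for Tnfsf13b, 2699 for Cxcl16 and 1295 for Ccl24 from the annotation. In non-immunized anti-HA libraries the mean normalized value per kilobase was 104.7 for Ccl24, 70.4 for Cxcl16, 9.07 for Tnfsf13b and 1.57 for Cxcl13. At max the order was Cxcl16 with 590.0, Cxcl13 with 77.7, Ccl24 with 44.9 and Tnfsf13b with 17.2. In relapse it was Cxcl16 with 155, Cxcl13 with 125, Ccl24 with 31.2 and Tnfsf13b with 15.9. Cxcl13 thus passed from the lowest to the second place and Ccl24 from the first to the third. Where reads cover only one end of a transcript, a level per length is not comparable between genes, and the read coverage was not analysed here.

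For each gene the 3 genes with the most similar course over the 6 anti-HA stage means were sought among 445 genes, by the root-mean-square difference of centred log2 values. Nearest to Cxcl13 were Hpse, which encodes heparanase (0.44), the chemokine gene Ccl8 (0.70) and Cst7, which encodes cystatin F (0.78). Nearest to Tnfsf13b were the inhibitory Fc receptor gene Fcgr2b (0.092), the cathepsin gene Ctss (0.12) and the signal peptidase gene Spcs3 (0.14). Cxcl16 was closest to Fxyd5 (0.22), the complement gene C2 (0.23) and Cd52 (0.24), and Ccl24 to Pf4 (0.20), the choline transporter-like gene Slc44a2 (0.20) and the leukocyte gene Lsp1 (0.205). The 4 genes were less alike among themselves, with differences of 0.76 between Tnfsf13b and Cxcl16 and 2.60 between Cxcl13 and Ccl24. These distances describe 6 means and carry no test.

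Of 10 genes for receptors and processing of the 4 proteins, only the BAFF receptors Tnfrsf13b (TACI) and Tnfrsf17 (BCMA) were in the stage table. Tnfrsf17 had a mean of 88.2 ± 26.0 (SD, n = 6) in non-immunized anti-HA libraries, 12.0 ± 6.79 (n = 4) at initiation and 14.0 ± 7.98 (n = 6) at max. From initiation to relapse its log2 fold changes were -2.90 ± 0.48, -2.77 ± 0.43, -1.54 ± 0.40, -1.61 ± 0.45 and -1.90 ± 0.48, all called (limma, adjusted p 5.37e-06, 9.53e-07, 0.00118, 0.00403 and 0.00172). Tnfrsf13b fell in cure by 1.57 ± 0.63 (adjusted p 0.0442) and in relapse by 1.89 ± 0.67 (0.0206); its initiation value was carried by 1 library at 146 against a group median of 10.6. The genes for B cell identity were not among the 716, as given above, so the level of these receptors could not be set beside B cell markers.

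Other chemokines were represented by 10 of 22 listed genes. Against non-immunized mice 9 of the 10 rose at initiation, all 10 at the next 3 stages and 9 in relapse, with median log2 fold changes of 4.47, 5.22, 3.72, 2.75 and 2.83, while all genes had the medians given above. Of all genes, 74.4%, 71.5%, 62.2%, 24.4% and 30.7% were called higher at these stages. Ccl5, an attractant of T cells, went from 60.7 ± 24.1 (SD, n = 6) to 6142 ± 2203 (n = 6) at max, a log2 fold change of 6.64 ± 0.42 (limma, adjusted p 2.66e-14). Ccl12, a monocyte attractant in mice, reached 1536 ± 877 (n = 4) at initiation from 65.2 ± 12.6. Ccl8 rose by 6.32 ± 0.51 at max and by 5.63 ± 0.57 in relapse (adjusted p 5.00e-12 and 3.85e-09), and the interferon-induced Cxcl10 by 5.98 ± 0.58 and 3.31 ± 0.65 (1.97e-10 and 0.000123). In relapse against max, 6 of the 10 were called lower and none higher, beside 49.2% of all genes called lower, a share near that of the list; the median was -2.21, and that of all genes -0.79. No gene of the lists of lymphoid chemokines and lymphotoxin, eosinophil attraction or other TNF family ligands was in the stage table.

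The series also sets Ifngr ko/fl against ko/wt animals. None of the 4 genes is among the 204 genes of the microglial table of that comparison as used here, so the effect of this genotype on them was not analysed here. In the authors' deposited table of CD25pos T cells, with 8627 genes and no values per library, Cxcl16 had a log2 fold change of -1.05 (adjusted p 0.554) between ko/fl and ko/wt. The CXCR6 gene, Cxcr6, had 0.84 (0.334) and Cxcr5, the receptor gene of CXCL13, 1.30 (0.435) in the authors' deposited table. Of 7 receptor and processing genes listed there, 0 were below 0.05, and of all 8627 genes 18 were.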

How the data were processed

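The stage table was analysed over 99 of 146 libraries. Its values are signal made by the authors from gene counts and size factors, as the values show; mm10 is the build per the submitters' processing notes, while aligner, counter and strand setting were not given in the sources used. Log2 fold changes and adjusted p-values, p-values of the authors' own comparisons, were used as deposited and are named where printed, as is the authors' cluster number. All values were whole multiples of 1 read within 0.01 of a step. Depth per library is given in the report.

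Stages and antibodies were compared with limma (3.58.1, under R 4.3.3). Values entered as log2(value + 1), fitted over all 716 genes, with Benjamini-Hochberg adjustment and a call below 0.05. edgeR 4.0.16 on the recovered reads, other pseudocounts and scalings, a replicate block and left-out libraries were alternatives. Of the 15 pairs of stages, 5 were added to the same fit after the design was written. The model was tested on simulated data. Counting intervals are exact at 95% and cover counting error only. Python 3.11.15 with matplotlib 3.10.9 drew the figures. The 4 genes and all lists were chosen with earlier results of these data known. Named genes are the 4, the 3 nearest to each, measured receptor genes and the 4 other chemokines of highest mean; marker genes named in the text were chosen after their values were seen.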

Additional observations from a re-analysis of the deposited data

Results flagged for a closer look

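Single libraries stood apart from their group in 14 of 72 groups of one gene, by the gap to the next library over the range. The limits used correspond to about 1 in 20 only for normally distributed values. Many of these groups hold few reads, and a group with reads in 1 library alone is always flagged. The count of 14 therefore cannot be read against 1 in 20. Initiation replicate 2 was high for Cxcl16 in anti-HA (1841), input (226) and IgG (115). Cure replicate 5 was high in input for Cxcl16 (80.8) and Cxcl13 (29.2), and in IgG for Cxcl16 (24.9) and Ccl24 (2.77). Max IgG replicate 2 was high for Cxcl16 (166) and Cxcl13 (22.1). In non-immunized mice the libraries apart were input replicate 1 (1.01) and IgG replicate 3 (0.99) for Cxcl13, each the only library of its group with a read, input replicate 5 for Tnfsf13b (5.66) and IgG replicate 2 for Cxcl16 (9.48). Relapse IgG replicate 3 held 6.60 for Ccl24, which was a single read.

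The difference between anti-HA and input changed against non-immunized mice, by a test of that change in limma, for Ccl24 at initiation (-2.56), max (-1.78), cure (-1.82) and relapse (-2.15). For Cxcl13 initiation had a change of 2.40, remission 2.78, cure 2.59 and relapse 3.29 (adjusted p 0.0201, 0.00250, 0.0189 and 0.00537). The Cxcl13 values rest on 6 anti-HA reads and 1 input read in non-immunized mice, and none of them was called with edgeR or with a pseudocount of 0.1; the initiation value was also not called without anti-HA initiation replicate 2 (2.06, adjusted p 0.0567).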

How the results depend on the processing

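Over the 20 comparisons of a stage with non-immunized anti-HA libraries, 429 of 476 alternative values kept direction and call, 43 lost the call and 4 reversed. Many of these values come from fits that leave out a single library. A filter on a group mean of at least 10 gave the same counts of called genes as the main fit. The tally is thus weighted to fits close to the main one. Of the 20, 15 were called under quantile normalization, 14 under TMM and 16 with the side term. Over 72 other results 1374 of 1428 kept both. These 72 are all comparisons of anti-HA with input or IgG and, of the remaining kinds, only results called in the main fit. Calls gained by uncalled results of those remaining kinds are thus outside this tally. Tnfsf13b reversed at initiation and max under quantile normalization (-0.19 and -0.19) and TMM (-0.17 and -0.20). Its call was lost in remission under TMM (0.44) and quantile normalization (0.29), and at max in libraries numbered 4 and up (0.95). In cure it was lost under all 99 libraries or the 2 groups alone (0.83 in both), TMM (0.65), quantile normalization (0.63), the side term (0.63) and without initiation 2 and cure 5 (0.63), and in relapse under all 99 libraries (0.83), TMM (0.49), quantile normalization (0.44) and the side term (0.63). Cxcl16 lost the call in cure without initiation 2 and cure 5 (0.97) and in relapse under edgeR (1.13) and TMM (0.83). Ccl24 lost it under the side term in cure (-1.16) and relapse (-1.18). Non-immunized Cxcl13, not called, reversed under quantile normalization against input (-0.61) and IgG (-0.73). The cause was not tested.

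Among these 20 comparisons, leaving out 1 library ended calls in cure and relapse alone: values were 0.97 to 1.55 and 1.04 to 1.57 for Cxcl16, with 5 and 6 libraries each able to end the call, and 0.63 to 1.04 and 0.72 to 1.01 for Tnfsf13b, with 6 and 7. Elsewhere single libraries ended the Cxcl13 calls of remission and relapse against initiation, the Ccl24 change in cure (-1.74 to -1.60) and the Cxcl13 change at initiation (2.06 without anti-HA initiation replicate 2, adjusted p 0.0567). Between disease stages 4 of 40 results of the 4 genes were called, against 2 with a pseudocount of 0.1, 9 under quantile normalization, 10 under TMM and 1 with the side term. Per pair of disease stages, 0 to 494 genes of the table (0% to 69%) were called in the main fit. The counts were 0 to 338 under quantile normalization, 0 to 327 under TMM and 0 to 100 with the side term. For the change of the anti-HA to input difference, 8 of 20 were called, against 0 with a pseudocount of 0.1, 3 with edgeR on the recovered reads, 4 under quantile normalization, 7 under TMM, 10 with a pseudocount of 10 and 11 with the replicate block.

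Over all genes, 297 to 649 were called against non-immunized anti-HA libraries, 58.9% to 82.1% of them higher, against 307 to 396 with 47.3% to 53.5% higher under quantile normalization, 327 to 404 with 52.9% to 58.7% under TMM and 239 to 653 with 80.7% to 90.4% under the side term. For anti-HA against input or IgG, 597 to 694 were called, 98.3% to 100% higher, against 387 to 526 (42.8% to 48.3%) under quantile normalization and 393 to 534 (50.3% to 55.8%) under TMM. For inputs 181 to 395 were called (96% to 100% higher), against 143 to 480 (34.4% to 53.1%) and 173 to 416 (57% to 74.1%). For the change of the difference, 132 to 348 were called (19.7% to 64.1% higher), against 81 to 325 (44.8% to 50.2%) and 146 to 300 (19.3% to 29%).

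Same-numbered anti-HA and input libraries correlated at -0.13 to 0.60, above 0.1 in 29 of 33 pairs, and 25 of 33 correlated best with their own number; across stages the median was 0.01. Within a stage this is a hint from the data that same-numbered anti-HA and input libraries belong together, but the labels do not say so and 4 of 33 pairs were not above 0.1, so the block stayed an alternative. In the fit of anti-HA libraries alone, the replicate block was the library number taken across stages, where the median correlation was 0.01. With that block, 19 of 20 calls against non-immunized mice held, and Cxcl16 in relapse was 1.09 and not called. Those 20 calls were therefore not tested against a pairing within a stage. In the fit of all 99 libraries the block was the number within a stage. No alternative was run on the Ifngr table, which holds none of the 4 genes. Few reads limit Cxcl13 in non-immunized mice and Ccl24 and Tnfsf13b in inputs.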
